A study of Mus musculus with 6 samples.

Results

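The 14-3-3 proteins are a family of 7 genes in the mouse, and all 7 were measured in 4T1 tumor cells: Sfn, which encodes the sigma form or stratifin, and the ubiquitous forms Ywhab (beta), Ywhae (epsilon), Ywhag (gamma), Ywhah (eta), Ywhaq (theta) and Ywhaz (zeta). The genes were chosen by family membership after the low Sfn values in one group of these arrays were known. Those values are therefore a description of how Sfn came to be chosen, and nothing is supported with them. The array carried 12 probes for the family, and 8 of them had a detection p-value under 0.05 on 3 or more of the 6 arrays and were kept, as were 16969 of all 45281 probes. Each gene had at least 1 probe kept, so that all 7 were among the 9348 genes tested.

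14-3-3 proteins form cup-shaped dimers that bind short phosphorylated motifs on client proteins. Binding can hold a client in the cytoplasm, block its active site or shield it from phosphatases, and the clients include kinases, cell cycle phosphatases and transcription factors. The ubiquitous forms are made in nearly every cell and readily pair with one another. Stratifin prefers to pair with itself, is made mainly by epithelial cells, and was first known as a marker of mammary epithelium. In human cells it is a target of p53 after DNA damage, keeps Cdk1 and cyclin B out of the nucleus, and its gene is often silenced by methylation in breast carcinoma.

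4T1 is a mammary carcinoma line of BALB/c mice, and total RNA of 6 samples was hybridised to MouseWG-6 v2 bead arrays, 1 array per sample. Of these 3 were 4T1-SC, which carry a scrambled control hairpin, and 3 were 4T1-MMP3lo, which carry a hairpin against Mmp3, the secreted protease stromelysin-1. Both kinds of cell were stably transfected and selected with puromycin, and both were grown in RPMI-based medium with serum. By the methods the selection antibiotic stayed in the medium of every line, and no other treatment of these samples is stated. The comparison asks how gene expression in the tumor cells changes with the Mmp3 hairpin. The titles call the 4T1-MMP3lo samples Cl1, and the labels do not say what this stands for. The study speaks of numbered clones among the Mmp3 hairpin constructs tried in another tumor line, and states that it went on with clone 1. Its methods speak of similar methods in 4T1, without saying whether the 4T1 cells came from a single cell. By the labels each day had 1 array of either group, and same-numbered replicates share a day. Nothing states that samples of a group came from separate transfections, so that p-values measure the spread between these samples only.

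Several facts of the arrays bear on every value below. The median intensity was 96.6 to 112.6 and 16722 to 17548 probes were detected per array. Mmp3 itself did not differ detectably under its hairpin, with 12.51 ± 0.86 in 4T1-SC and 12.46 ± 1.58 in the other group (log2, SD, n = 3 each), a difference of −0.06 (SE 0.74, 95% interval −1.75 to 1.64, adjusted p = 0.990). Within the same-day pairs it was −0.88, 0.42 and 0.29, lower in the arrays labelled 4T1-MMP3lo in replicate 1 and higher in replicates 2 and 3. The groups are therefore called by their labels only. Array 4T1-SC replicate 1 stood apart from its group, correlating across probes at 0.978 with the array labelled 4T1-MMP3lo replicate 1 and at 0.938 and 0.954 with the other 4T1-SC arrays. Of the epithelial markers, Krt8, Krt18, Krt19 and Cdh1 were detected on all 6 arrays and Epcam on none. Of the leukocyte markers Ptprc, Itgam, Adgre1 and Lyz2 were detected on 0 arrays, with Cd3e and Csf1r on 4 each. Of the fibroblast markers Col1a1, Lum and Pdgfrb were detected on 0 arrays, and by their best probe Col1a2 and Col3a1 on 1 each and Dcn on 2. Pdgfra was detected on 6, with a difference of 0.93 (adjusted p = 0.470). Of the endothelial markers Pecam1 and Tie1 were detected on 0 arrays, and by their best probe Cdh5 on 1, Tek on 2 and Kdr on 3.

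The sequence before the start of the gene, which needs no expression value, was compared between Sfn and the 4 ubiquitous forms with a matched promoter. Promoters of 5 of the 7 genes were matched in RefSeq (GRCm38.p6), and the 250 bases upstream of the start are shown for Sfn and for Ywhah, the ubiquitous gene with the most CpG dinucleotides beside Ywhae. Capitals mark each CpG, the dinucleotide at which mammalian DNA is methylated. The Sfn stretch is chr4:133602169-133602418 and the Ywhah stretch chr5:33018566-33018815, on the minus and the plus strand, and both are printed 5′ to 3′ in the direction of the gene.
Sfn: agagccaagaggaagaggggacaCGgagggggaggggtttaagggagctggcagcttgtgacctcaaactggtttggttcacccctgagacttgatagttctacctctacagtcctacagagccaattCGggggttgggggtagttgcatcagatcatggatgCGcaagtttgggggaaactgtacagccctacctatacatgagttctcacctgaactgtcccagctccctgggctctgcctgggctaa
Ywhah: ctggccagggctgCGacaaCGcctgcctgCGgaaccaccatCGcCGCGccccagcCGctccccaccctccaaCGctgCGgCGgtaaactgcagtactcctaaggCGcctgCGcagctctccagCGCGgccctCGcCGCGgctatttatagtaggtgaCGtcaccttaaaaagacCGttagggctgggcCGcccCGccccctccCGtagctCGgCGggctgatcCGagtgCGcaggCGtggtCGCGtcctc

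The Sfn stretch held 3 CpG dinucleotides, or 0.166 of the number its base composition gives, with a GC content of 54.4%. The 4 ubiquitous genes held 16 (Ywhag), 24 (Ywhaq) and 29 (Ywhae and Ywhah), at 0.86 to 1 of the number given by composition. Over all 32841 mouse promoters the median was 6, and 29% held fewer than Sfn. By the same measure 74.6% held fewer than Ywhag, 88% fewer than Ywhaq and 93.2% fewer than Ywhae or Ywhah. A search of both strands for CACCTG (reverse CAGGTG), the E-box bound by zinc finger repressors of the Snai and Zeb families, found it in Sfn, starting 41 bases before the start, and in none of the 4 ubiquitous genes. It stood in 17.2% of all promoters. The GC box GGGCGG (reverse CCGCCC) stood in Ywhae, Ywhag and Ywhah and in 32.7% of all promoters. CCAAT (reverse ATTGG) stood in Sfn and Ywhaq and in 33.9%, and TATAAA (reverse TTTATA) in Ywhah and in 12.4%. These matches describe letters in a window, and neither methylation nor factor binding was measured here.

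Sfn was lower in every array labelled 4T1-MMP3lo than in every 4T1-SC array. On the linear scale of the deposited intensities, before background correction, the 4T1-SC arrays read 336.8, 488.2 and 417.6 (replicates 1 to 3), whereas the arrays labelled 4T1-MMP3lo read 176.0, 160.9 and 176.6. After background correction and quantile normalization the log2 values were 8.28, 8.45 and 8.41 in 4T1-SC and 6.42, 6.34 and 6.21 in the other group. The high group and the low group were each tight, with means of 8.38 ± 0.09 and 6.32 ± 0.10 (SD, n = 3 each), and they were far from overlapping. The difference was −2.06 on the log2 scale (SE 0.17, 95% interval −2.45 to −1.67), a 4.16-fold lower signal, with an adjusted p of 0.00836 by limma over all genes. It was −1.87, −2.11 and −2.20 within the pairs of replicates 1, 2 and 3. By p-value Sfn stood at rank 1 of the 9348 genes, and by size of difference at rank 35. Since Sfn was chosen with these values known, its p-value, interval and ranks are a description and no support.

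The size of the Sfn difference differed with the handling of background. On the same arrays without background correction, and likewise in the authors' own log2 table, it was −1.32 (adjusted p = 0.0227), or 2.50-fold. Leaving out replicate 2 or 3 of 4T1-SC raised the adjusted p above 0.05, to 0.0586 and 0.0888, and so did leaving out those of the other group, at 0.0869 and 0.0825, while the difference stayed between −2.07 and −2.001. Without 4T1-SC replicate 1, the array that stood apart, it was −2.10 (adjusted p = 0.000294). In a bulk sample, fewer cells that make Sfn and less Sfn RNA in each cell cannot be told apart.

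Only 1 of the 2 Sfn probes gave a measurement. The kept probe, ILMN_2648169, had detection p-values of 0 on the 4T1-SC arrays and 0.00107 on the others. The second, ILMN_2867084, was not detected on any array. Its intensities were 92.4, 112.7 and 110.2 in 4T1-SC against 104.9, 111.3 and 115.1 in those labelled 4T1-MMP3lo, with detection p-values from 0.0609 to 0.552. The Sfn values therefore rest on a single probe, and the silent probe neither repeats nor contradicts them.

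**Figure D1:**
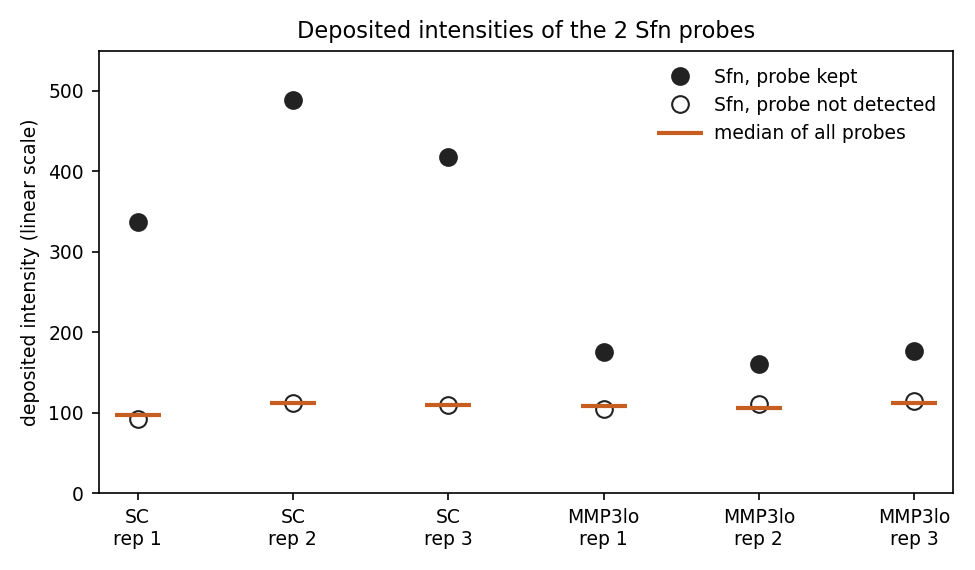
Deposited intensity (linear scale) of the kept Sfn probe (filled circles) and of the Sfn probe that was not detected (open circles) on each of the 6 arrays, with the median of all probes on the array as a bar. The kept probe lies at 336.8 to 488.2 on the 4T1-SC arrays and at 160.9 to 176.6 on the arrays labelled 4T1-MMP3lo, while the other probe stays at 92.4 to 115.1, near the array medians.

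The ubiquitous 14-3-3 genes showed no such difference. By limma 0 of the 6 passed the test and 0 were at an unadjusted p under 0.05, their differences ran from −0.20 to 0.12 on the log2 scale, and all 6 of their 95% intervals lay between −0.79 and 0.55. Changes of 2-fold or more, 1 on the log2 scale, were thus outside the interval of each. For Ywhae, whose signal was near background on every array, this covers the normalized signal and need not cover the RNA. Of the 7 family members 1 fell and 0 rose, where 1.09% of all genes were called in either direction and 0.492% were called lower in the arrays labelled 4T1-MMP3lo. Since Sfn was chosen with its fall known, nothing is read from that count.

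Ywhaz encodes the zeta form, much studied in breast cancer as a binder of survival and growth factor signalling proteins. Its log2 values were 12.50, 12.54 and 12.22 in 4T1-SC against 12.61, 12.15 and 12.21 in those labelled 4T1-MMP3lo. The groups overlapped, with the highest and the lowest value of the gene both in the arrays labelled 4T1-MMP3lo, and the difference was −0.10 (SE 0.20, 95% interval −0.56 to 0.37, adjusted p = 0.910).

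Ywhab encodes the beta form, a partner of Raf kinases. Its brighter probe read 11.59, 11.70 and 11.18 in 4T1-SC against 11.58, 11.24 and 11.35 in those labelled 4T1-MMP3lo. The difference was −0.10 (SE 0.21, 95% interval −0.57 to 0.38, adjusted p = 0.912), with every array of the second group inside the range of the first. It was the only member with a second kept probe, which read 10.22, 10.62 and 10.43 in 4T1-SC and 10.66, 10.34 and 10.36 in the others. The second probe's difference was 0.03, so that the 2 probes had opposite signs and neither passed the test.

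Ywhah encodes the eta form. Its values were 12.37, 12.33 and 12.17 in 4T1-SC against 12.02, 12.17 and 12.10 in those labelled 4T1-MMP3lo. The lowest 4T1-SC value stood just above the highest of the other group, so that the groups did not overlap, but the difference was small at −0.20 (SE 0.17, 95% interval −0.58 to 0.19, adjusted p = 0.725). With Sfn, 2 of the 7 members had groups that did not overlap, where 17.7% of all genes did.

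Ywhag encodes the gamma form, which binds Cdc25 phosphatases among its clients. Its values were 11.10, 10.59 and 10.73 in 4T1-SC against 11.07, 10.74 and 10.75 in those labelled 4T1-MMP3lo. Here the replicate number and not the group ordered the arrays, since both arrays of replicate 1 (11.07 and 11.10) stood above the other 4 (10.59 to 10.75). The group difference was 0.05 (SE 0.21, 95% interval −0.43 to 0.52, adjusted p = 0.969).

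Ywhaq encodes the theta form, prominent in T cells. Its values were 9.90, 10.10 and 9.61 in 4T1-SC against 9.94, 9.93 and 10.08 in those labelled 4T1-MMP3lo. All values of the second group lay within the range of the first, and the difference was 0.12 (SE 0.19, 95% interval −0.32 to 0.55, adjusted p = 0.881).

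Ywhae encodes the epsilon form, the most conserved of the family across eukaryotes. Its single probe was dim, with detection p-values from 0.00107 to 0.0107 on the 6 arrays. It read 5.33, 6.02 and 5.10 in 4T1-SC against 5.27, 5.47 and 5.12 in those labelled 4T1-MMP3lo. One 4T1-SC array, replicate 2, stood above the rest. The difference was −0.19 with the widest interval of the family (SE 0.26, 95% interval −0.79 to 0.40, adjusted p = 0.842). Because levels of different probes are not comparable, the low signal does not rank Ywhae among the other forms.

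**Figure D2:**
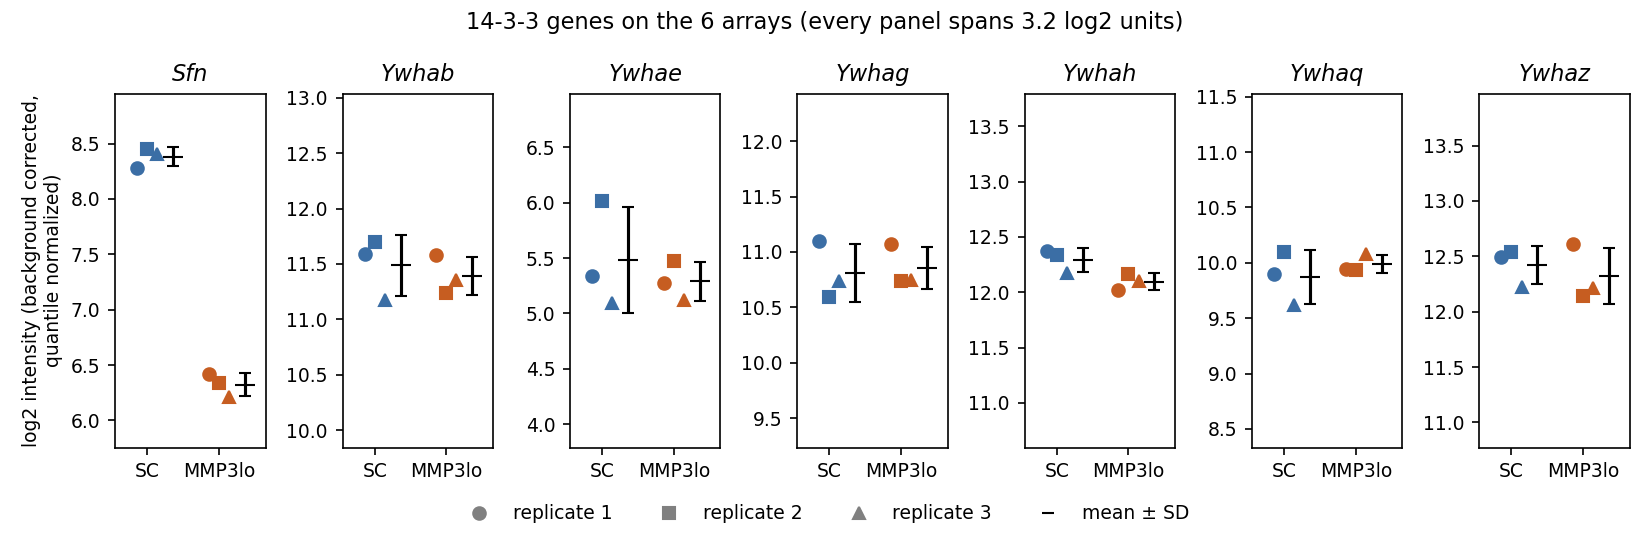
Background-corrected, quantile-normalized log2 intensity of each 14-3-3 gene on the 6 arrays (4T1-SC blue, arrays labelled 4T1-MMP3lo orange, marker shape gives the replicate number, black bars give the mean ± SD of 3 arrays), with every panel spanning the same number of log2 units around its own centre. Sfn is at 8.28 or above on the 4T1-SC arrays and at 6.42 or below on the others, whereas the 6 ubiquitous genes stay within a range of 0.35 to 0.92 over all arrays.

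Probes of the other forms that were not kept add no measurement. Ywhag, Ywhah and Ywhaz each had 1 more probe, detected on 1, 2 and 1 of the 6 arrays. In the fit over the 16969 kept probes, 0.748% of probes were called, and of the 8 family probes only that of Sfn was (adjusted p = 0.00998).

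**Figure D3:**
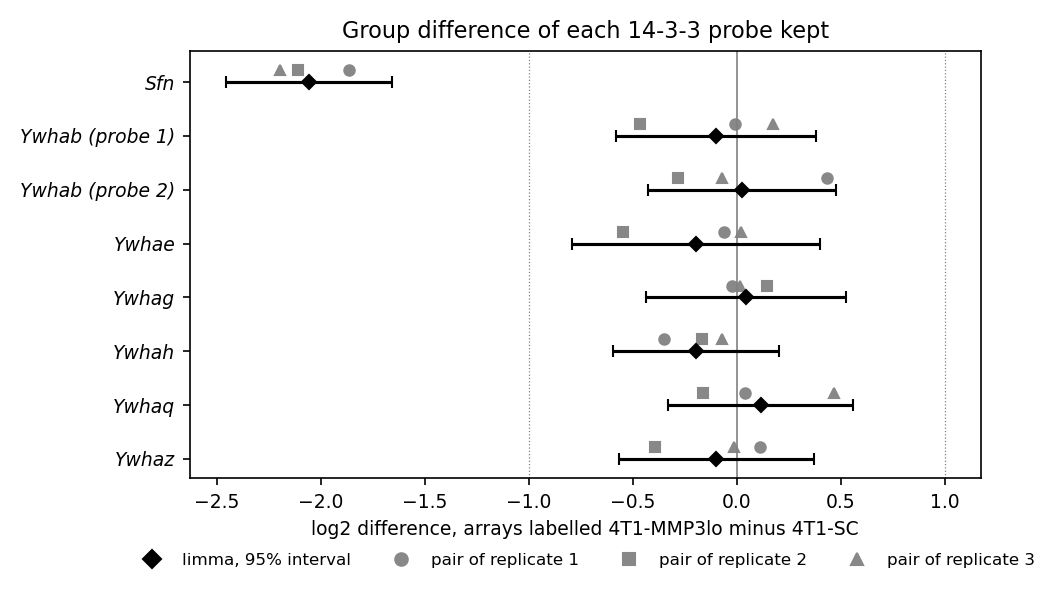
Log2 difference between the arrays labelled 4T1-MMP3lo and 4T1-SC for each of the 8 kept 14-3-3 probes, from limma over all kept probes (diamonds with 95% intervals), with the differences of the 3 same-numbered pairs in grey and dotted lines at 1 log2 unit either way. Sfn lies at −2.06 and its pairs at −1.87 to −2.20, while the intervals of the 7 ubiquitous probes all contain 0.

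Setting Sfn against each ubiquitous form on the same array removes any shift common to both probes on that array. The log2 value of Sfn minus that of the other gene was lower in the arrays labelled 4T1-MMP3lo by −1.96 for Ywhab, −1.86 for Ywhae, −2.10 for Ywhag, −1.86 for Ywhah, −2.17 for Ywhaq and −1.96 for Ywhaz, or 3.63-fold to 4.51-fold. The 2 groups did not overlap in any of the 6 pairs. Each gave an exact two-sided permutation p of 0.1, the smallest that 3 arrays against 3 allow (0.1 after adjustment over the 6 pairs), so that this test cannot pass 0.05. The same Sfn values enter all 6, which makes them one observation seen against 6 references. Sfn was chosen with its fall known, and the other forms ranged over only 0.35 to 0.92 on the 6 arrays. The separation was therefore fixed beforehand, and nothing is read from these p-values.

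Over the 6 arrays the ubiquitous forms did not follow Sfn closely. Pearson's r with Sfn was 0.77 for Ywhah, 0.34 for Ywhae, 0.30 for Ywhaz, 0.27 for Ywhab, −0.13 for Ywhag and −0.37 for Ywhaq, given as a description because the arrays fall into the 2 groups. The replicate number moved Ywhag, Ywhaz and Ywhab more than the group did, their group differences being 0.05, −0.10 and −0.10. Averaged over the pair, replicate 1 exceeded the other arrays by 0.38 in Ywhag, 0.27 in Ywhaz and 0.22 in Ywhab, and differed from them by −0.00 in Sfn.

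The 6 genes whose pattern was most like that of Sfn, among 2344 with at least 0.5 times its range over the 6 arrays, were Il24, Tbcel, Nox4, Ovol2, Ptprf and Itgb6, with r from 0.980 to 0.993. All were lower in the arrays labelled 4T1-MMP3lo. Il24, a cytokine of the interleukin-10 family, read 11.87, 11.78 and 11.77 in 4T1-SC and 10.66, 10.53 and 10.57 in the other group, a difference of −1.22 (adjusted p = 0.0216). Ovol2, a transcription factor of epithelial cells, differed by −1.01 (adjusted p = 0.0443), and Ptprf, a receptor phosphatase at cell contacts, by −1.21 (adjusted p = 0.0300). Itgb6, the integrin subunit of epithelial cells that activates latent TGF-β, differed by −3.07 (adjusted p = 0.0110). Tbcel and Nox4, an NADPH oxidase, gave no detected signal in the 4T1-MMP3lo group. On the background-corrected scale they were 4.37-fold and 5.02-fold lower there, set against the lowest detected signal. These sizes hold for this handling of background only and are no lower bounds. Both genes passed the detection filter through the 3 4T1-SC arrays alone and so had to differ, and no test is given for them. These genes were picked for their likeness to Sfn, which follows the groups, so that a group difference was built in. Their differences and adjusted p-values are therefore a description.

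**Figure D4:**
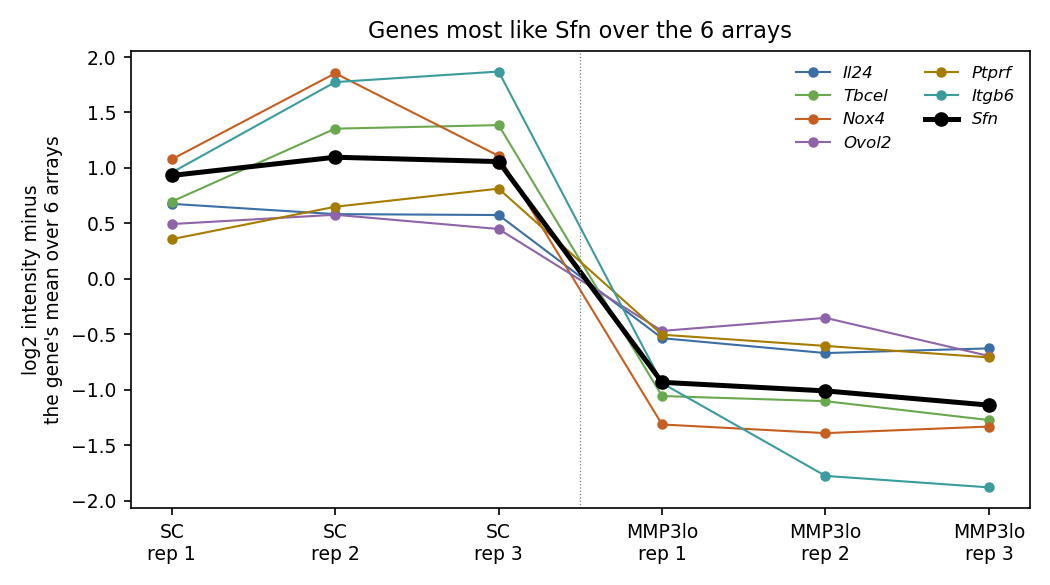
Log2 intensity of Sfn (thick black line) and of the 6 genes most like it, each minus its own mean over the 6 arrays, by array; lines join the arrays for reading only and mark no order among them. All 7 genes are higher on the 4T1-SC arrays and lower on the arrays labelled 4T1-MMP3lo, and Itgb6 spreads widest, with a group difference of −3.07.

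None of the measured genes known to act on Sfn passed the test. Only 1.09% of all genes did, so that nothing is read from this. The list of regulators holds p53 family members and their regulators, DNA methyltransferases, Smad3 and Trim25, the ligase that marks stratifin for destruction. Of its 15 genes 9 were measured, namely Trim25, Smad3, Brca1, Dnmt1, Klf4, Mdm4, Mdm2, Cop1 and Dnmt3b. No p53 family member was among these. By limma 0 were called in either direction, 0 were at an unadjusted p under 0.05 (12.2% of all genes were), and the median difference was 0.10, beside 0.02 over all genes tested. The largest were Trim25 at −0.62 (SE 0.28, adjusted p = 0.425) and Smad3 at 0.44 (SE 0.27, adjusted p = 0.583), and 0 of the 9 had groups that did not overlap. Trp53 was not analysed here, and whether p53 acts on Sfn in these cells was not tested.

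Other targets of p53 likewise gave no call, where 1.09% of all genes were called. Of 32 listed 25 were measured, 0 rose and 0 fell (3 of 25 were at an unadjusted p under 0.05, against 12.2% of all genes), and the median difference was 0.08. In the arrays labelled 4T1-MMP3lo 18 of the 25 were higher, where 52.3% of all genes were. Phlda3, an inhibitor of Akt, read 8.49, 8.93 and 8.55 in 4T1-SC and 7.93, 7.76 and 8.07 in the other group (difference −0.74, SE 0.20, adjusted p = 0.150), and Plk3, a stress kinase, differed by 0.70 (SE 0.32, adjusted p = 0.438).

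Clients of 14-3-3 proteins were measured as transcripts only, although the proteins act on them by binding. Calls were made for 1.09% of all genes. Of the cell cycle clients 8 of 10 were measured, with 0 called, 1 at an unadjusted p under 0.05 and a median of 0.00. Cdk1, the mitotic kinase, read 12.02, 12.23 and 12.03 in 4T1-SC against 11.68, 11.65 and 11.60 in those labelled 4T1-MMP3lo, a difference of −0.45 (SE 0.17, adjusted p = 0.327), and Cdk4 differed by −0.40 (SE 0.20, adjusted p = 0.478). Of the signalling clients 40 of 49 were measured, with 0 called, 3 at an unadjusted p under 0.05 and a median of 0.04, beside the 12.2% of all genes at such a p. Lsr, a receptor of tricellular junctions, differed by −0.90 (SE 0.20, adjusted p = 0.0846), and Ndrg1, a stress-induced gene, by 0.86 (SE 0.51, adjusted p = 0.562).

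Yap1 and Wwtr1 (TAZ), coactivators that 14-3-3 proteins hold in the cytoplasm, have targets that can be read as RNA. Of 19 such targets 14 were measured and 0 were called, where 1.09% of all genes were. At an unadjusted p under 0.05 were 4 (12.2% of all genes were), and the median was 0.02. Ccn1, a matricellular protein, read 9.77, 8.06 and 8.44 in 4T1-SC against 9.45, 10.47 and 10.32 in those labelled 4T1-MMP3lo. Its replicate 1 pair ran against the other pairs, and the difference of 1.32 did not pass the test (SE 0.45, adjusted p = 0.279). Ndrg1, given above, was the next largest in this list.

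Epithelial genes shared the direction of Sfn. Of 46 listed 32 were measured, and 9 fell, where 0.492% of all genes were called lower, 0 rose and 23 did not pass, with a median of −0.80. All 32 were lower in the arrays labelled 4T1-MMP3lo (31 of 32 with a median shift in place of quantiles), where 47.7% of all genes were, and 17 had groups that did not overlap, where 17.7% of all genes did. Beside Itgb6, the largest were Ap1m2, which sorts proteins to the basolateral membrane, at −2.73 (SE 0.38, adjusted p = 0.0234), and Esrp1, an epithelial splicing regulator, at −1.95 (SE 0.34, adjusted p = 0.0419). Ap1m2 read 7.85, 8.98 and 8.79 in 4T1-SC and 6.40, 5.18 and 5.84 in the others, and Esrp1 read 11.53, 11.58 and 11.83 and 10.53, 9.29 and 9.26. The 4 keratins of simple epithelia in the list did not pass the test, with Krt8 at −0.04 (adjusted p = 0.974), Krt7 at −0.36 (0.623), Krt18 at −0.40 (0.509) and Krt19 at −0.66 (0.527).

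The study had itself picked 7 of the 32 measured genes from these libraries, and 6 of the 9 that fell were among them, so that the list is not independent evidence of its direction. Among the other 25, 3 fell, 25 were lower and the median was −0.67. The whole list was chosen with earlier results of these data known, so that these counts are likewise a description. The array medians of the 32 genes, each gene measured from its own mean, were 0.21, 0.61 and 0.53 in 4T1-SC against −0.27, −0.44 and −0.53 in those labelled 4T1-MMP3lo. They were thus lowest within 4T1-SC on replicate 1, as was Sfn. The count of 9 was 0 without 4T1-SC replicate 2 or 3 or without 4T1-MMP3lo replicate 2 or 3, and 18 without 4T1-SC replicate 1. It was 1 without background correction, 0 with no detection filter and 0 by the methods' t-test, an ordinary gene-by-gene test.

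Stratifin is also abundant in basal and squamous cells such as keratinocytes, and genes of those cells did not move as one. Of 33 listed 16 were measured, with 2 lower past the test, where 0.492% of all genes were, 0 higher and a median of −0.37. By sign alone 12 were lower and 4 higher. In 6 of the 16 the groups did not overlap, where 17.7% of all genes did. By limma 7 were at an unadjusted p under 0.05, where 12.2% of all genes were. Col7a1, the collagen of anchoring fibrils, fell by 1.69 on the log2 scale (SE 0.29, adjusted p = 0.0390), and Bnc1, a basal cell zinc finger protein, fell by 1.66 (SE 0.24, adjusted p = 0.0241). The study had picked 3 of the 16 from these libraries, namely both that fell and Krt17. Krt17, named after its values were seen because its keratin binds stratifin in mouse keratinocytes, went the other way. It read 6.57, 5.38 and 5.30 in 4T1-SC against 9.04, 7.53 and 7.79 in those labelled 4T1-MMP3lo. The difference was 2.37 (SE 0.46, adjusted p = 0.0611, or 0.00792 with the replicate block). Krt17 was named with these values known, so that they are a description.

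**Figure D5:**
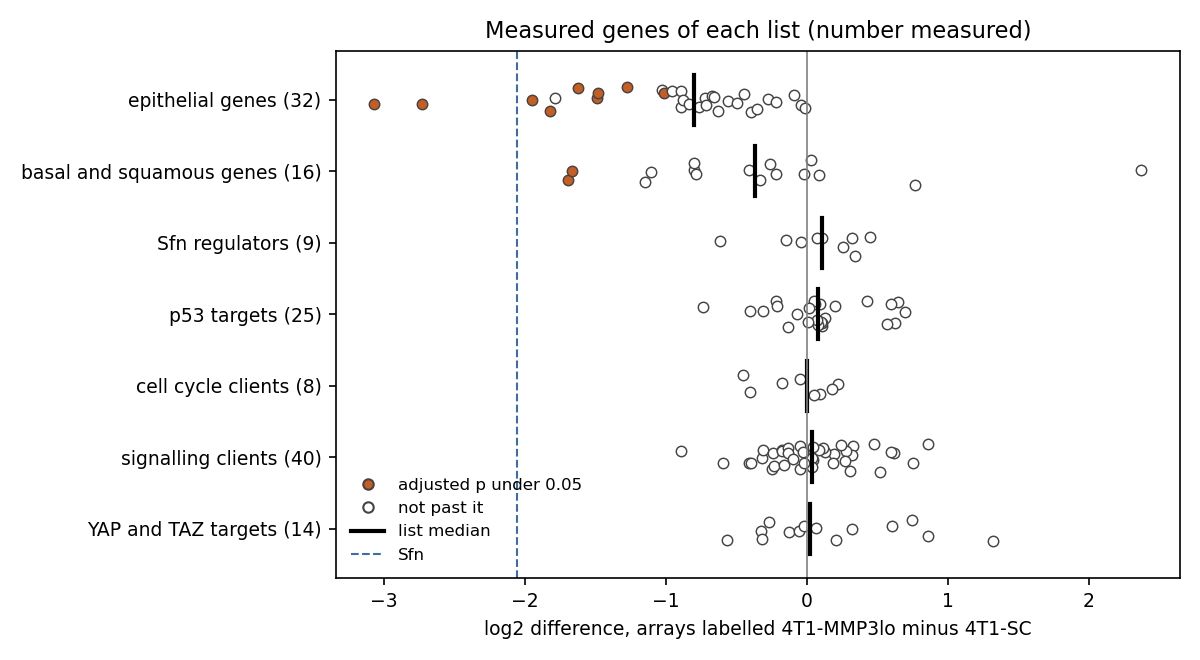
Log2 difference between the arrays labelled 4T1-MMP3lo and 4T1-SC for each measured gene of 7 lists, with the number measured in brackets; filled points passed an adjusted p of 0.05, black bars are list medians and the dashed line marks Sfn. Points passed the test only in the epithelial list (9 genes) and in the basal and squamous list (2 genes), and the medians of the other 5 lists lie between 0.00 and 0.10.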

How the data were processed

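For each of the 6 arrays the deposited files give probe intensity on a linear scale, with no background correction or normalization visible, and a deposited detection p-value beside it. A second deposited table holds log2 values whose columns keep the rank order of the intensities (rank correlation 1), with medians of 6.74674 to 6.74786; it was used as an alternative. The software is not given in the sources used here.

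Log2 values were made with neqc of limma 3.58.1 in R 4.3.3 (offset 16). A probe was kept with a detection p-value under 0.05 on 3 or more arrays, and the brightest probe stood for a gene. Groups were compared with lmFit and eBayes over all genes, with Benjamini-Hochberg adjustment, and "rose", "fell" and "called" mean an adjusted p under 0.05. Sfn minus each other form was compared by an exact permutation test. The number of arrays, 3 per group, limits the precision. The group fit was tested on simulated data with the same spread for every gene and independent noise. These arrays differ from that, so that the simulation checks the code and not the calls made here.

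The labels give same-numbered arrays a shared day. Their deviations from group means correlated across genes at 0.442, 0.212 and 0.283, and crossing replicates 2 and 3 gave 0.309 and 0.235, so that for these the pairing rests on the labels.

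The members, the gene lists and the rule for genes named were chosen with earlier results of these data known. Named are the 7 members, Mmp3, in each list up to 3 called genes with the largest difference or else the 2 largest, and the 6 genes most correlated with Sfn. The figures were made in Python 3.11.15 with matplotlib 3.10.9.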

Additional observations from a re-analysis of the deposited data

Results flagged for a closer look

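In Ywhag and Ywhaz the replicate 1 pair moved opposite to both other pairs. The differences of the pairs of replicates 1, 2 and 3 (arrays labelled 4T1-MMP3lo minus 4T1-SC, log2 scale) were −0.02, 0.15 and 0.01 in Ywhag and 0.11, −0.39 and −0.01 in Ywhaz. The replicate 1 pair thus differed from the mean of the others by −0.11 (−0.106) in Ywhag and by 0.32 (0.315) in Ywhaz. This difference between days was not tested, since each day has 1 array of each group.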

How the results depend on the processing

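The Sfn difference was negative in all 16 alternatives, from −2.15 (array weights) to −1.32. It passed an adjusted p of 0.05 in 11 of them, and with the replicate block (−2.06) its adjusted p was 0.0124. This count describes how the value of a gene chosen for its fall depends on the processing. By the methods' t-test the same −2.06 did not pass 0.05 (adjusted p = 0.0850, with 1054 genes at an unadjusted p under 0.05 and 0 called). Leaving out single arrays, or both arrays of replicate 1 (chosen after the data were seen), gave −2.15 to −2.001. The 102 genes called became 12 without background correction and in the authors' log2 table, 38 with an offset of 50, 30 with no detection filter, 194 with the replicate block (100 of the 102 shared), 3103 with array weights, 0 by the methods' t-test and 0 to 1012 with arrays left out (0 without 4T1-SC replicate 3 or 4T1-MMP3lo replicate 2 or 3, with 657 to 891 at an unadjusted p under 0.05). A median shift in place of quantiles split the calls into 71 higher and 33 lower, against 56 and 46.

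Of the 96 comparisons of ubiquitous forms, 1 was called, Ywhaq with array weights (0.38, adjusted p = 0.0333), and 7 had the other sign. With array weights Ywhab was 0.11 (0.109) and Ywhae 0.03 (0.0285). With arrays left out, Ywhab ran from −0.25 to 0.01 (0.00799), Ywhae from −0.39 to 0.07 (0.0732), Ywhag from −0.06 (−0.0639) to 0.19 and Ywhaq from −0.01 (−0.0133) to 0.23. The replicate block changed no call among the 14-3-3 genes. The cause of these changes was not tested. Signal over background was low for Sfn in the arrays labelled 4T1-MMP3lo and for Ywhae on every array.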
